A study of Brachypodium distachyon and Sorghum bicolor and Panicum virgatum with 44 samples.

Results

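The genes described here are those of Brachypodium distachyon whose transcripts were higher than in control plants under drought, cold, submergence and heat alike. A gene was included when the mean of its 2 TPM values in each stress, plus 1, was at least 2 times its mean in control, plus 1. TPM, as RSEM reports it, is a transcript level scaled for gene length and for the total of the library. Of the 34310 genes in the RNA-seq files, 28 met this rule (0.0816%), and all 28 passed the filter on low counts that left 23494 genes for testing. The values that chose these genes are the differences from control, so those differences are given as a description and were not tested as a result.

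The RNA came from above-ground tissue of Bd21, an inbred line of this small temperate grass. Plants were grown in soil at 20 °C under 20 h of light and were stressed for 12 h at an age of 21 days. Drought plants were taken out of the soil and their roots were dried, cold plants were held at 4 °C, submergence plants stood fully under tap water with at least 5 cm above them, heat plants were held at 40 °C, and control plants received no stress. Each of the 5 conditions had 2 RNA-seq libraries, labelled as biological replicates, and no label tells how many plants went into each library. Total RSEM expected counts per library ranged from 9885357 to 17978729. Replicates correlated with r from 0.989 to 0.995 over log2 CPM of all genes, which are not independent points. The series also holds 34 libraries of PARE (Parallel Analysis of RNA Ends), which reads the 5′ ends of uncapped RNA fragments, and from these comes the table of predicted miRNA target sites used below.

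Plants meet water loss, cold, flooding and heat with signals that partly overlap, among them abscisic acid, calcium and reactive oxygen species, and partly differ between stresses. In a whole shoot a transcript can also become more abundant because the cells that make it have become a larger part of the tissue, and a change in the cells present cannot be told apart here from a change in RNA per cell. Plant miRNAs pair with a target along most of their length and guide an Argonaute protein to cut it inside the paired region, which leaves an uncapped fragment that PARE can read.

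None of the 31335 genes in the RefSeq gene list could be paired with the IDs used here, so 27 of the 28 genes are given by ID alone. The exception is Bradi1g09030, which the study annotates with a PUA-like domain. The labelled tissue was likewise not checked against marker genes. By the chromosome number in their IDs, 8 of the 28 genes were on each of chromosomes 1, 2 and 3. Those chromosomes hold 28.9%, 22.2% and 22.1% of all genes in the files. Chromosome 5, with 9.69% of all genes, held 4 of the 28, and chromosome 4, with 17.1%, held none. These counts were not tested.

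The miRNAs below are printed because their predicted sites are the ones in these genes to which the site results turn. They were copied from the site table, run 5′ to 3′, and have bases 2 to 8, the seed, in capitals. The 2 miR395 forms were predicted for a site in Bradi1g09030, the 2 miR166 forms for Bradi3g37623 and, in the case of miR166f, also for Bradi3g52590, and miR5183 and miR1122 for Bradi5g23135.
miR395c-3p: uGAAGUGUuugggggaacuc
miR395p-3p: uGAAGUGUuuggaggaacuc
miR166f: uCUCGGACcaggcuucauucc
miR166e-3p: cUCGGACCaggcuucauuccc
miR5183: uAUUUGGAcaaauuugaguca
miR1122: uAGAUACAuccguauuugga
The miR395 forms share a seed and differ only by G13A (miR395c-3p to miR395p-3p, positions counted from the 5′ end). The miR166 forms share 20 bases and miR166f starts 1 base earlier, so their seeds differ although the RNAs are almost the same.

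As a group, the 28 genes were raised most in drought and least in heat. The median ratio to control was 10.2 under drought, 3.63 under cold, 3.37 under submergence and 2.38 under heat. The highest stress mean was that of drought for 14 genes, cold for 8, submergence for 6 and heat for none, while heat gave the lowest stress mean in 14. Heat was also where the rule was hardest to meet: 424 genes reached the ratio in exactly 3 stresses, and heat was the missing one in 296 of them, against 87 for cold, 35 for submergence and 6 for drought. Over all genes, 13.1% reached the ratio under drought, 4.5% under cold, 7.24% under submergence and 3.7% under heat.

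Summed over the 28 genes, the level was 3818 and 3670 TPM in drought, 3297 and 2850 TPM in cold, 2215 and 1763 TPM in submergence and 716 and 924 TPM in heat, against 351 and 314 TPM in control. The lowest stress sum, in heat, was above both control sums. Most of the genes were scarce without stress, with a median control mean of 3.89 TPM, 24 genes under 10 TPM and 4 under 1 TPM, and 10 of them passed 100 TPM in the mean of some stress.

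**Figure D1:**
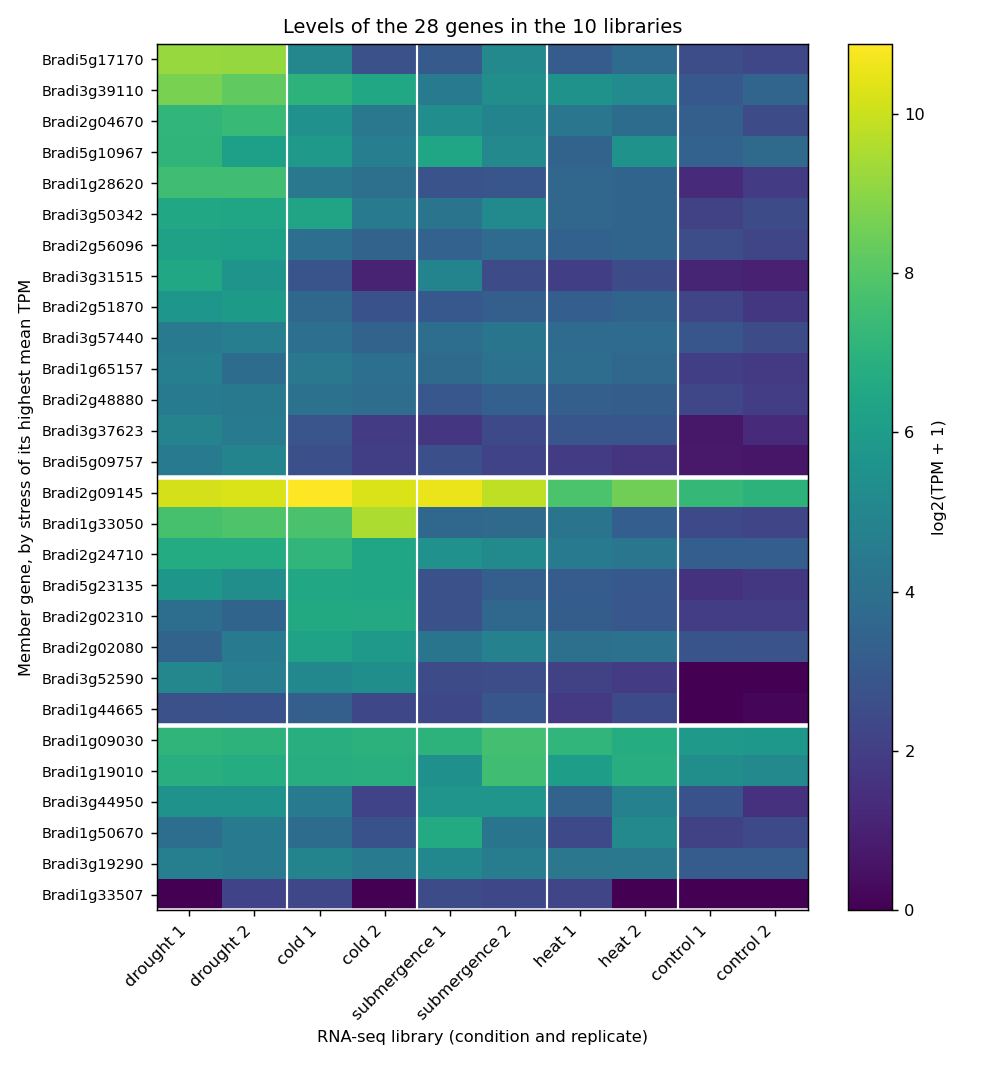
Heat map of log2(TPM + 1) for the 28 genes (down the page, grouped by the stress of their highest mean and split by white lines: drought, cold, submergence) in each of the 10 libraries (across, with control at the right). Drought leads in 14 genes, cold in 8 and submergence in 6, and no group is headed by heat.

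Bradi2g09145 was the most abundant of these transcripts. It had 1164 and 1237 TPM in drought, 1882 and 1233 TPM in cold, 1500 and 923 TPM in submergence and 222 and 366 TPM in heat, against 153 and 129 TPM in control. All 8 stress libraries lay above both control libraries, and the heat libraries lay below every library of the other stresses. This 1 gene made up from 30.5% to 67.7% of the summed TPM of the 28 genes in each library, so the sums above lean on it. Without it they were 2654 and 2433 TPM in drought, 1415 and 1617 TPM in cold, 716 and 839 TPM in submergence and 494 and 558 TPM in heat, against 198 and 185 TPM in control.

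Bradi5g17170 and Bradi1g28620 stood furthest above the other stresses in drought. Bradi5g17170 had 596 and 578 TPM in drought, 32.2 and 5.48 TPM in cold, 7.55 and 33.6 TPM in submergence and 7.99 and 13.0 TPM in heat, against 4.86 and 3.95 TPM in control. Its drought libraries agreed closely, while its cold and its submergence libraries differed several-fold within a condition, with 1 of each near control. Its drought mean was 35.3 times the mean of the other stress means, the highest such excess in the group. Bradi1g28620 had 188 and 185 TPM in drought, 19.2 and 15.03 TPM in cold, 5.89 and 6.51 TPM in submergence and 11.1 and 10.4 TPM in heat, against 1.48 and 2.86 TPM in control. The replicates of every stress were close for this gene, and its drought mean was 16.4 times that of the other stresses.

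Bradi3g39110 had 410 and 298 TPM in drought, 129 and 90.8 TPM in cold, 21.6 and 40.1 TPM in submergence and 47.8 and 37.3 TPM in heat, against 6.99 and 10.6 TPM in control. It stepped down in the order drought, cold, then heat and submergence together, whose libraries overlapped. Bradi2g04670 had 143 and 167 TPM in drought, 44.9 and 19.8 TPM in cold, 39.3 and 29.3 TPM in submergence and 18.1 and 13.5 TPM in heat, against 8.93 and 4.83 TPM in control. Its cold and submergence libraries overlapped and heat lay lowest. Bradi3g50342 had 90.1 and 82.5 TPM in drought, 80.4 and 21.4 TPM in cold, 17.0 and 34.4 TPM in submergence and 11.0 and 10.5 TPM in heat, against 3.24 and 4.58 TPM in control. Here 1 cold library nearly reached the drought level and the other lay within the submergence range.

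Cold led in another set. Bradi1g33050 had 206 and 236 TPM in drought, 216 and 741 TPM in cold, 11.6 and 12.6 TPM in submergence and 17.0 and 8.44 TPM in heat, against 4.33 and 3.82 TPM in control. Its first place in cold rests on cold replicate 2, since the other cold library lay within the drought range. Bradi2g02310 had 14.2 and 10.4 TPM in drought, 98.0 and 92.7 TPM in cold, 5.49 and 11.3 TPM in submergence and 8.27 and 6.82 TPM in heat, against 2.94 and 2.95 TPM in control. Both of its cold libraries stood far above the rest, and its cold mean was 10.1 times that of the other stresses. Bradi5g23135, the gene with the miR5183 and miR1122 sites, had 52.5 and 41.0 TPM in drought, 92.2 and 84.2 TPM in cold, 5.46 and 8.94 TPM in submergence and 8.02 and 7.05 TPM in heat, against 2.04 and 2.36 TPM in control. Cold and drought formed separate upper levels for this gene, and the submergence and heat libraries overlapped.

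Bradi2g02080 had 10.2 and 20.8 TPM in drought, 75.0 and 58.2 TPM in cold, 17.9 and 26.3 TPM in submergence and 15.3 and 15.8 TPM in heat, against 6.05 and 5.83 TPM in control. On the TPM scale it was 1 of only 2 genes in which drought gave the lowest stress mean, and its drought libraries enclosed those of heat. On the rescaled values described below, heat was its lowest stress. Bradi2g24710 had 103 and 102 TPM in drought, 142 and 86.6 TPM in cold, 44.7 and 34.4 TPM in submergence and 21.7 and 18.6 TPM in heat, against 8.57 and 8.61 TPM in control. Drought and cold could not be ordered from these libraries, since the cold pair enclosed the drought pair.

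Submergence had the highest mean in 6 genes, and in most of them its replicates were far apart or the stresses were nearly level. Bradi1g50670 had 14.3 and 21.2 TPM in drought, 13.6 and 5.61 TPM in cold, 101 and 17.9 TPM in submergence and 4.31 and 34.2 TPM in heat, against 3.41 and 4.31 TPM in control. Submergence replicate 1 alone gave submergence its lead, and heat replicate 1 was at the control level. Bradi3g44950 had 46.5 and 45.2 TPM in drought, 22.2 and 3.55 TPM in cold, 50.1 and 50.2 TPM in submergence and 9.92 and 26.8 TPM in heat, against 5.78 and 1.93 TPM in control. Drought and submergence were tight and close together for this gene, and cold replicate 2 lay between the control libraries.

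Bradi1g19010, Bradi3g19290 and Bradi1g09030 came nearest to an equal rise in all 4 stresses. Bradi1g19010 had 112 and 107 TPM in drought, 109 and 112 TPM in cold, 43.7 and 187 TPM in submergence and 66.7 and 110 TPM in heat, against 40.1 and 33.4 TPM in control. Its submergence libraries enclosed every other stress library, and replicate 1 was just above control. Bradi3g19290 had 25.0 and 21.0 TPM in drought, 28.8 and 22.1 TPM in cold, 32.6 and 23.1 TPM in submergence and 18.9 and 19.7 TPM in heat, against 8.07 and 7.99 TPM in control. Its highest stress mean was 1.45 times its lowest. Bradi1g09030, the gene with the PUA-like domain and the miR395 site, had 139 and 131 TPM in drought, 116 and 127 TPM in cold, 130 and 197 TPM in submergence and 142 and 107 TPM in heat, against 57.0 and 55.5 TPM in control. Its heat libraries enclosed those of drought and of cold, its ratios to control ran only from 2.14 to 2.87, and its heat mean was 0.888 times the mean of the other stress means, the nearest to equal of the 28 genes.

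**Figure D2:**
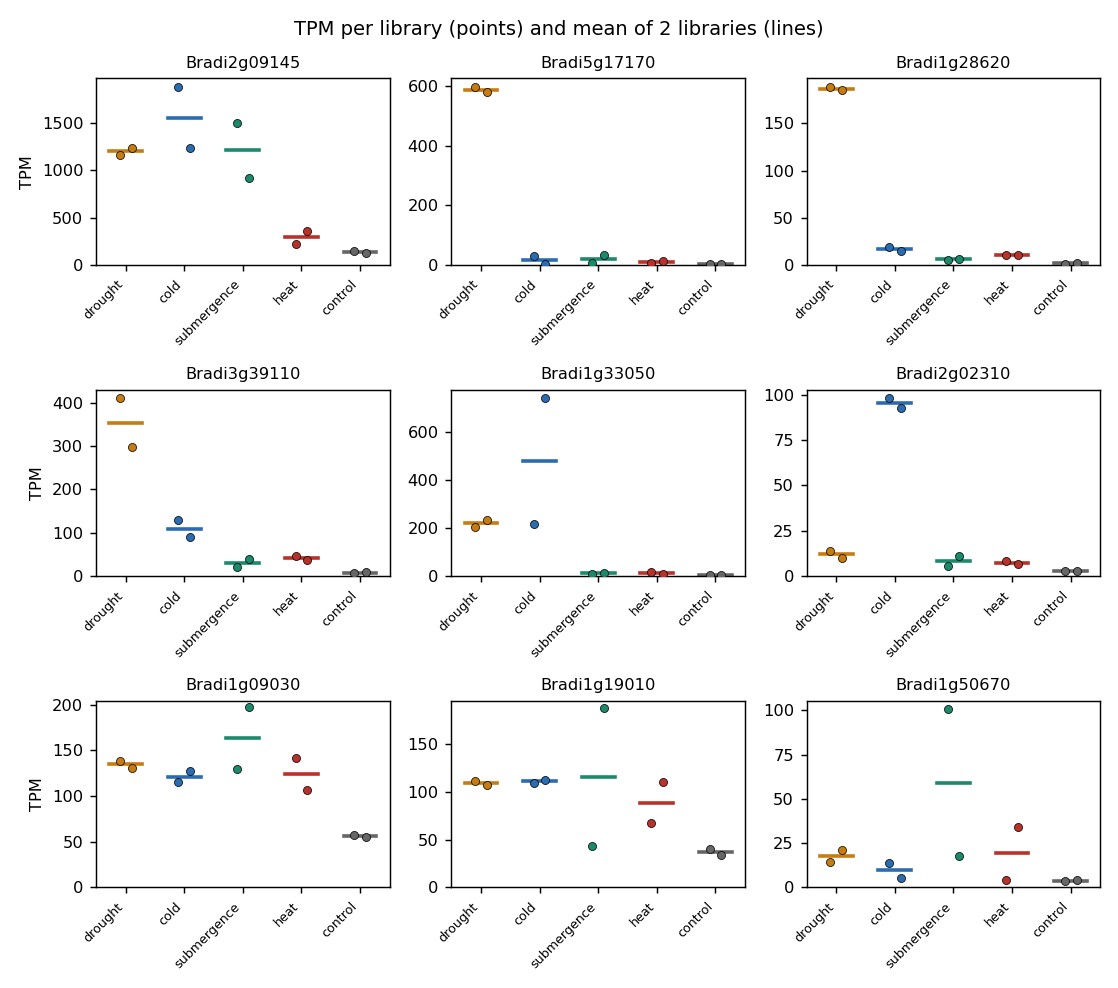
TPM of 9 of the genes in each library (points) with the mean of the 2 libraries (lines), for drought, cold, submergence, heat and control from left to right; each panel has its own linear axis from 0. Bradi5g17170 and Bradi1g28620 stand out in drought, Bradi2g02310 in cold, Bradi1g09030 is nearly level over the stresses, and the submergence points of Bradi1g19010 and Bradi1g50670 lie far apart.

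Some of the genes with the largest smallest ratio had almost no reads in control. Bradi3g52590 had 31.8 and 24.0 TPM in drought, 32.5 and 41.6 TPM in cold, 4.59 and 5.03 TPM in submergence and 3.41 and 2.68 TPM in heat, against 0 and 0 TPM in control. Against a floor of 3 counts per control library, it was at least 15.9-fold higher in drought, at least 21.6-fold higher in cold, at least 3.05-fold higher in submergence and at least 1.78-fold higher in heat, from the lower stress library in each case. Bradi1g44665 had 5.43 and 5.73 TPM in drought, 8.69 and 4.17 TPM in cold, 4.14 and 6.55 TPM in submergence and 2.63 and 4.51 TPM in heat, against 0 and 0.1 TPM in control. Against the same floor, it was at least 7.01-fold higher in drought, 5.38-fold in cold, 5.34-fold in submergence and 3.39-fold in heat. This was the flattest profile among the genes that control plants barely expressed.

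Bradi5g09757 rested on 1 count in each control library. It had 24 and 37 counts in drought, 9 and 5 counts in cold, 8 and 6 counts in submergence and 5 counts in each heat library. Scaled for depth, the count ratio to control was 39.4 in drought (95% exact interval 10.5 to 333, counting error only), and in heat it was 4.09 with an interval from 0.872 to 38.4 that includes no difference. Bradi1g33507 was the least certain of the 28 genes, with expected counts of 0 and 18 under drought, 27.7 and 0 under cold, 27.7 in both submergence libraries and 27.7 and 0 under heat, against 0 in both control libraries. It was at 0 in 1 library of drought, cold and heat, it was not past the threshold in any stress, and its fractional counts mean that its reads were shared with other genes. Fractional counts occurred in 8 of the 28 genes (28.6%, against 26.1% of genes tested), namely Bradi1g33507, Bradi1g44665, Bradi2g04670, Bradi2g51870, Bradi2g56096, Bradi3g44950, Bradi5g10967 and Bradi5g17170, and how their reads were divided among similar genes is uncertain.

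The remaining genes followed the same drought-led or nearly flat profiles. Bradi5g10967 had 137 and 68.7 TPM in drought, 57.2 and 24.2 TPM in cold, 83.1 and 34.0 TPM in submergence and 9.9 and 45.5 TPM in heat, against 9.57 and 12.4 TPM in control, with heat replicate 1 between the control libraries. Bradi1g65157 had 24.6 and 13.5 TPM in drought, 19.8 and 14.9 TPM in cold, 12.4 and 15.9 TPM in submergence and 13.8 and 11.5 TPM in heat, against 3.03 and 2.56 TPM in control, with every stress library at least several-fold above control. Bradi3g31515 had 88.5 and 48.7 TPM in drought, 6.05 and 1.11 TPM in cold, 28.7 and 4.57 TPM in submergence and 3.06 and 4.69 TPM in heat, against 1.21 and 1.02 TPM in control, so that cold replicate 2 was at the control level. Bradi2g51870 and Bradi3g37623 were alike in having drought first and, by mean TPM, heat second. Their drought means were 55.0 and 25.1 TPM, their heat means 9.47 and 6.45 TPM, and their control means 3.13 and 1.02 TPM. Second place for heat is unsure, since the cold libraries of Bradi2g51870 (11.8 and 5.77 TPM) enclosed those of heat (8.46 and 10.5 TPM). In Bradi3g37623, 1 cold library at 6.31 TPM was close to the heat libraries at 6.43 and 6.47 TPM. Bradi2g56096 was also drought-led, with 74.5 and 68.6 TPM in drought and between 9.32 and 14.9 TPM in the other stress libraries, against 4.87 and 3.88 TPM in control. Bradi2g48880 averaged 20.8 TPM in drought and 14.8 TPM in cold, against 3.42 TPM in control, and Bradi3g57440 averaged 23.2 TPM in drought and 12.4 TPM in cold, against 5.6 TPM in control.

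The 5 genes just inside the rule were Bradi5g17170, Bradi2g09145, Bradi3g57440, Bradi2g56096 and Bradi2g48880, with smallest ratios of 2.13, 2.08, 2.03, 2.005 and 2.005. The 5 just outside were Bradi1g25837, Bradi3g52693, Bradi5g08970, Bradi1g76000 and Bradi1g18170, with smallest ratios of 1.999, 1.99, 1.98, 1.97 and 1.95. The edge therefore falls in a dense run of values, and steep drought genes such as Bradi5g17170 stand at it because of another stress.

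**Figure D3:**
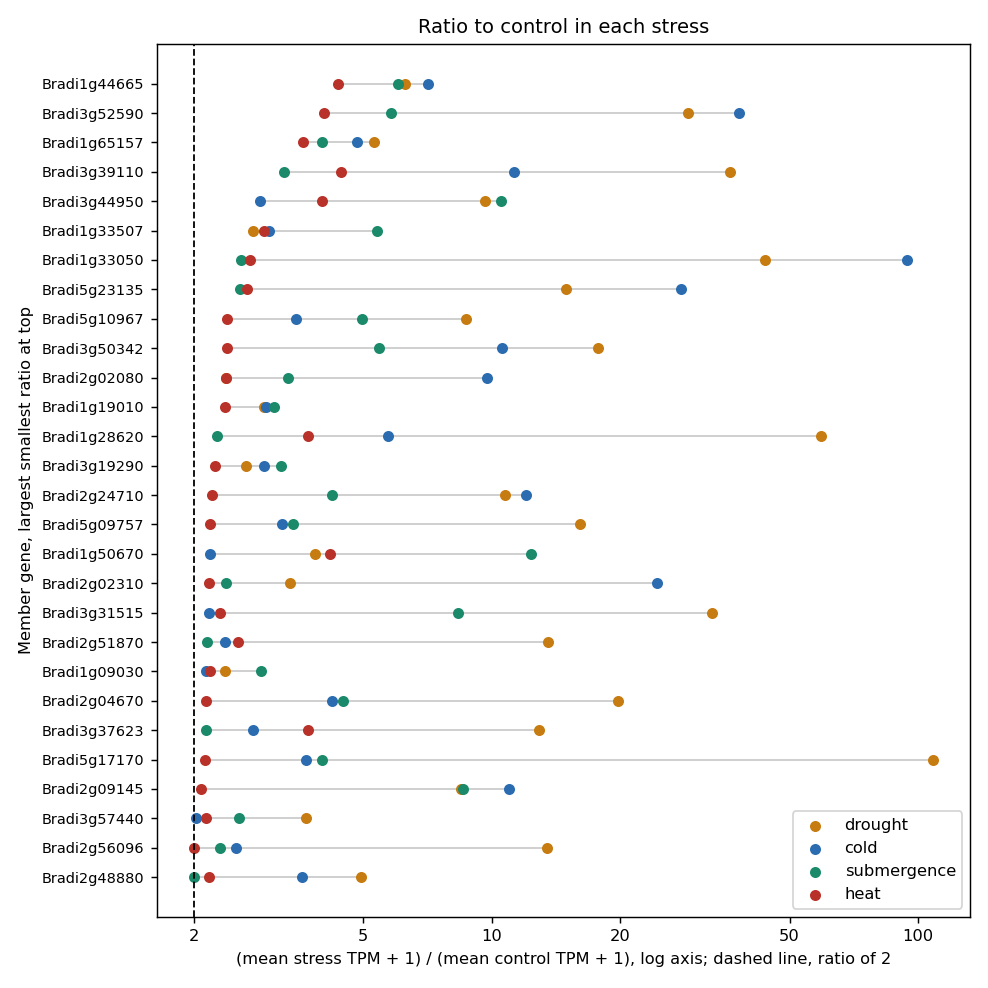
Ratio of stress to control, from mean TPM plus 1 (log axis), for each of the 28 genes in drought, cold, submergence and heat, ordered from the largest smallest ratio at the top; the dashed line marks the ratio of 2. Heat points keep to a ratio of at most 4.44 and drought points reach 109.

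The separation from control was described library by library and gene by gene, which is no test of genes chosen on it. All 4 stresses were set against the same control libraries, so low control values raise all 4 differences at once. The 4 comparisons are therefore not independent of each other. Both drought libraries were above both control libraries in 27 of the 28 genes (28.6% of all genes), both cold libraries in 25 (14.3%), both submergence libraries in 28 (35.4%) and both heat libraries in 25 (33%), and all 4 stresses met this in 23 genes (2.84%). With edgeR's quasi-likelihood test on the expected counts, adjusted over all genes tested, 26 of the 28 genes were called higher in drought (32.1% of genes tested), 22 in cold (12.2%), 22 in submergence (14.9%) and 16 in heat (8.21%). In all, 15 were called in all 4 stresses, out of 95 such genes (0.404%), and the other 80 were below the ratio in at least 1 stress. Without control replicate 2, only 2 of the genes were called in heat and 11 in submergence, without control replicate 1 there were 7 in heat and 14 in submergence, and without heat replicate 2 there were 8 in heat.

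The replicate numbers gave a reading in libraries the choice had not used. When replicate 1 of each condition alone chose the genes, 27 met the rule, and 9 of these (33.3%) also met it in replicate 2, where 0.117% of all genes met it. When replicate 2 alone chose, 40 genes met it, and the same 9 were 22.5% of these, where 0.0787% of all genes met it in replicate 1. These 9 were all among the 28, which follows by arithmetic, since the rule uses the mean of the replicates. A further 4 of the 28 met the rule in replicate 1 only, 7 in replicate 2 only and 8 in neither alone. Of the genes chosen in replicate 1, 15 of 27 reached the ratio in heat in replicate 2 (4.62% of all genes), against 25 in drought (13.9%). Of the 40 chosen in replicate 2, 15 reached it in heat in replicate 1 (4.65% of all genes), against 35 in drought (12.8%).

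Widely separated replicates were commonest in cold. The 2 libraries differed by at least 2 times in TPM plus 1 for 1 gene under drought, 9 under cold, 5 under submergence and 4 under heat, against 1 for control. Over the genes tested the shares were 2.12%, 3.73%, 3.51%, 2.20% and 0.655% in the same order, against 3.57%, 32.1%, 17.9%, 14.3% and 3.57% of the 28. The rule uses the mean of 2 libraries, so it can admit a gene through 1 high library. The shares of the 28 thus depend in part on the choice, and no trait of the genes is read from them. Leaving out each library in turn kept 9 of the 28 genes in every case. Without cold replicate 1 only 20 genes met the rule, all of them among the 28, and without control replicate 1 there were 60, which held 25 of the 28.

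When the lower stress replicate was set against the higher control replicate, 6 genes met the ratio in all 4 stresses (0.0175% of all genes): Bradi1g44665, Bradi3g52590, Bradi1g65157, Bradi3g50342, Bradi3g19290 and Bradi2g24710. They cover drought-led, cold-led and nearly flat profiles alike.

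**Figure D4:**
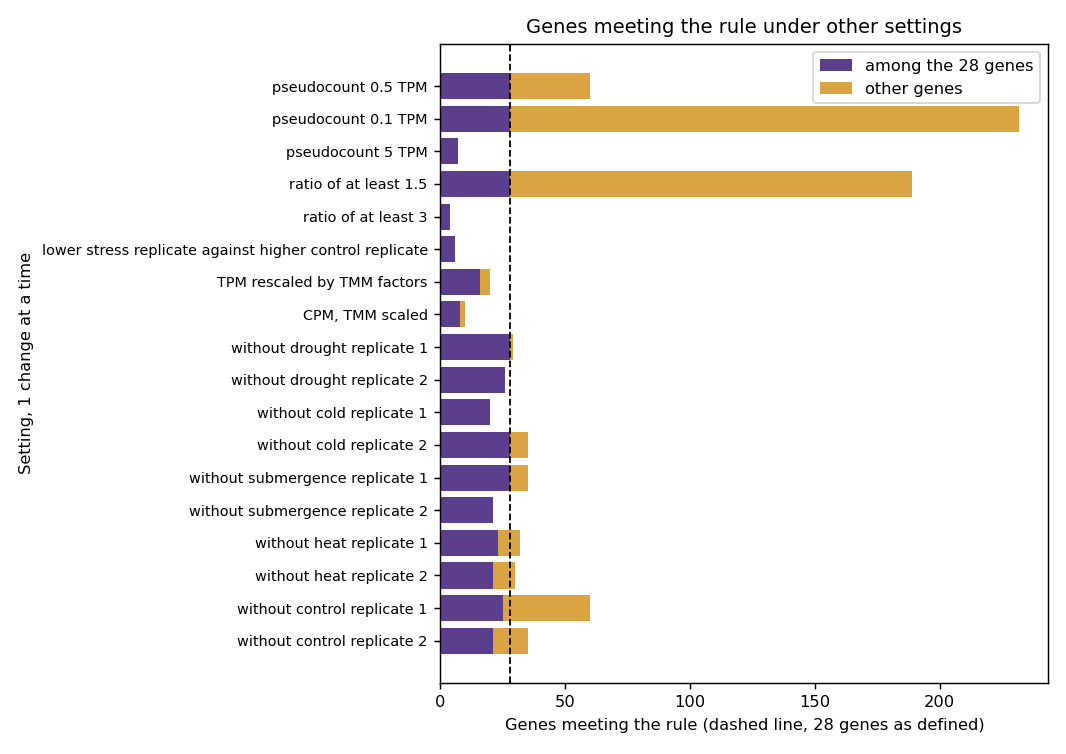
Number of genes meeting the rule (horizontal axis) under each change of setting (down the page), split into those among the 28 genes and others; the dashed line marks 28. A pseudocount of 0.1 TPM gives 232 genes, one of 5 TPM gives 7, and leaving out 1 library gives from 20 to 60.

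The stresses were then compared with each other. The rule did not set the stresses against each other, but the same stress libraries entered both. The rule also admits no gene lowered in any stress, while the shares of all genes tested, given in brackets, include such genes. The shares are therefore not like for like, and how far the counts below follow from the choice was not tested. Drought exceeded submergence and heat in most of these genes. In edgeR's fit, 18 of the 28 genes were higher in drought than in submergence (29% of genes tested) and none was lower (29.5%), and 22 were higher in drought than in heat (32.5%) and none was lower (35.1%). The median log2 difference over the 28 genes was 1.84 for drought minus submergence and 2.35 for drought minus heat, against −0.08 and −0.12 over all genes tested.

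Drought and cold were nearer to each other, with 10 genes higher in drought (27.2%), 3 lower (28.9%) and a median log2 difference of 0.58. Cold exceeded submergence in 12 genes (22.4%) and heat in 15 (21.6%), with none lower in cold in either case (18.9% and 20.6%) and median log2 differences of 0.72 and 1.12. The count of 0 against submergence did not hold under every setting, since 2 genes were lower in cold without submergence replicate 2 or with library size alone, and 1 without cold replicate 1 or when either heat library was left out. These were drawn from Bradi1g50670, Bradi3g31515 and Bradi3g44950. Submergence and heat hardly separated these genes, with 3 higher in submergence (18.7%), 1 lower (20.3%) and a median log2 difference of 0.43. The 3 were Bradi2g09145, Bradi2g24710 and Bradi2g04670, and the 1 was Bradi1g28620, all named after their values were seen. The share higher in the first stress was thus above that of all genes tested in every pair but submergence and heat, where it was below it.

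**Figure D5:**
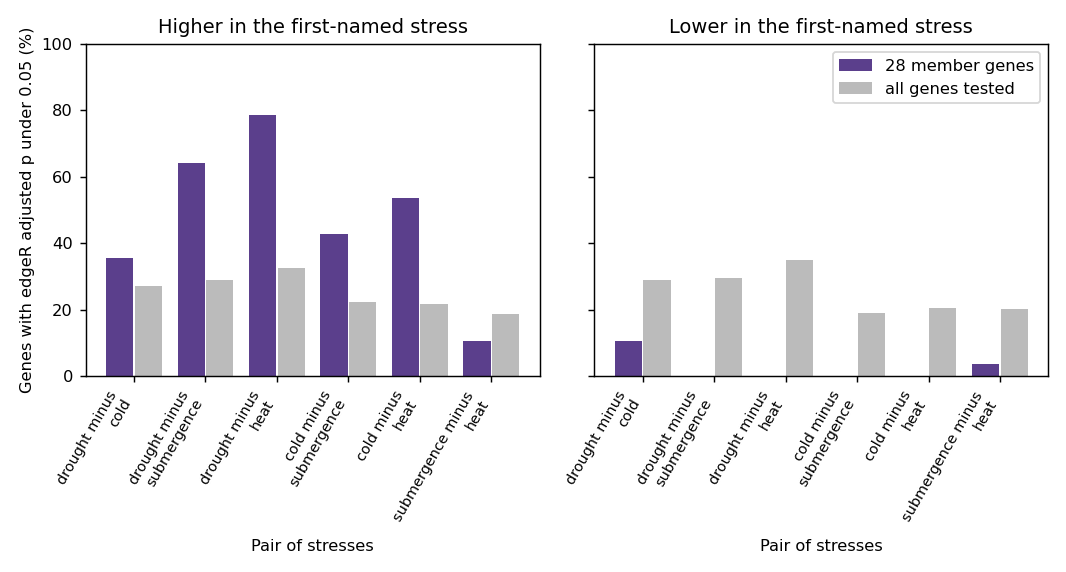
Share of genes with an edgeR adjusted p under 0.05 (vertical axis, in percent) that were higher (left) or lower (right) in the first-named stress, for the 28 genes and for all genes tested, over 6 pairs of stresses. Drought minus heat has the tallest bar of the 28 genes at 78.6%, and 4 of the 6 pairs have no gene of the 28 lower in the first stress.

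In 10 genes drought had the highest mean and was past the threshold against each of the other 3 stresses, and in 3 genes cold did so. No gene did so for submergence or heat. The same share over all genes tested was not counted, so whether these counts are unusual cannot be told. For Bradi5g17170 the log2 difference was 5.31 ± 0.81 (SE) for drought minus submergence, its second stress, with an adjusted p of 4.05e-04. For Bradi1g28620, whose second stress was cold, drought minus cold was 3.40 ± 0.21 (adjusted p = 2.57e-06), and for Bradi3g39110 it was 1.64 ± 0.29 (adjusted p = 9.31e-04).

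Among the 3 cold genes, Bradi2g02310 had a log2 difference of 3.01 ± 0.26 for cold minus drought (adjusted p = 1.36e-05), and Bradi5g23135 had 0.96 ± 0.19 (adjusted p = 0.00201). Bradi2g02080 had 2.11 ± 0.30 for cold minus submergence (adjusted p = 6.24e-04). Bradi1g33050, the gene with the highest ratio in cold, missed the threshold against drought with 1.15 ± 0.45 (adjusted p = 0.0511, from 4.03e-04 to 0.967 when a library was left out). It passed against heat with 5.67 ± 0.56 (adjusted p = 6.62e-05).

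Written as an order from high to low by mean TPM, the 28 genes showed 13 different orders of the 4 stresses, none of them in more than 4 genes. The order came from the same libraries as the fit, so the pairs compared were picked gene by gene on their values. The adjustment within each contrast does not cover this choice. The shares over all genes tested were not counted, so the counts that follow are a description. The stresses in places 1 and 2 of the order differed past the threshold in 13 genes, those in places 2 and 3 in 12 genes, and those in places 3 and 4 in 5 genes. Of the 13, 12 held when any 1 library was left out, and Bradi3g31515 (2.48 ± 0.72 for drought minus submergence, adjusted p = 0.0138) had an adjusted p of 0.0858 without drought replicate 1. The highest and lowest stress differed in 21 genes. In 6 genes, Bradi1g44665, Bradi3g44950, Bradi1g33507, Bradi5g10967, Bradi1g19010 and Bradi1g50670, no neighbouring pair did, and a missed threshold does not show that their stresses were equal.

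For Bradi1g09030 the largest difference between stresses was 0.50 ± 0.18 for drought minus heat (adjusted p = 0.0336, up to 0.203 when a library was left out). Submergence minus heat was 0.31 ± 0.18 (adjusted p = 0.206) and drought minus cold was 0.11 ± 0.18 (adjusted p = 0.641). Its highest stress mean was 1.35 times its lowest, against 1.30 for Bradi1g19010 and 1.45 for Bradi3g19290, and these ratios were not tested against each other.

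The order depends in part on scaling. On the TPM scale the median tested gene had a log2 ratio to control of −0.22 under drought, −0.23 under cold, 0.19 under submergence and 0.13 under heat, and TMM scaling, which edgeR's fit used, took these to between −0.01 and 0.03. With TPM rescaled by the TMM factors, drought was highest in 16 genes, cold in 10, submergence in 2 and heat in none. Heat was then lowest in 19 genes and drought in none, and the highest stress was the same in 24 of the 28 genes. The fit turned round 15 of 84 neighbouring pairs, none of them past the threshold. The rule itself gave 20 genes on the rescaled values, 16 of them among the 28, and the 12 lost included Bradi1g09030 and Bradi2g09145 as well as Bradi2g48880 and Bradi2g56096 at the edge.

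The median length of the 28 genes was 996 bases, against 1497 over all genes and 1807 over the genes tested, and 7 of the 28 were longer than the median gene tested. In 24 of 28 (85.7%) there was 1 annotated transcript, against 76.7% of all genes and 69.0% of genes tested. Bradi5g09757 was the shortest at 255 bases and Bradi3g57440 the longest at 2942 bases. Short genes give fewer counts at a given TPM, and what part this has in the spread between replicates was not tested.

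The site table lists a cleavage position for each predicted pairing of a transcript with a miRNA, the PARE abundance there in TP10M (the abundance unit of the study, which sets libraries of different depth on a common scale), and a prominence level from 0, with no PARE read, to 4. It holds 1 value per site rather than 1 per library, so no stress can be compared in it. Of the 28 genes, 11 had a predicted site (39.3%, 95% Wilson interval 23.6 to 57.6%), against 44.0% of all genes and 50.7% of genes tested. Their 16 sites included 9 with a PARE read (56.3%, 33.2 to 76.9%, counting error only), against 37.8% of all sites in the table and 44.6% of sites of genes tested. At least 1 read at a site was found in 7 genes (25.0%, 12.7 to 43.4%), against 21.0% of all genes and 29.5% of genes tested. The intervals of the 28 genes include the shares of the other genes in each of these cases. At Level 3 or 4 there was 1 of the 16 sites (6.25%, 1.11 to 28.3%), against 0.762% of all sites. That interval lies above the share of all sites, but it rests on 1 site.

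A single site stood out. In Bradi1g09030 the position 624 bases into the transcript, inside the site predicted for miR395c-3p and miR395p-3p (bases 614 to 633), had 243 TP10M and was at Level 3. It ranked first among the PARE positions of the transcript and held 13.9% of the PARE abundance there. The deposited level follows a criterion of 20% for that share, whereas the paper words this criterion as 10%. By the paper's wording, tried here once the values had been seen, the site would be at Level 4. The psRNATarget expectation, in which 0 is a perfect match, was 0.5 for miR395p-3p and 1 for miR395c-3p, the sequence of the table shared by 11 miR395 names. Of 728 sites predicted for miR395 in the table, this one had the highest abundance, and only 2 of them were at Level 3 or 4. In Arabidopsis, miR395 is known for targets in sulfate uptake and assimilation, and it accumulates when sulfate is short. The library named for the site is a leaf library that is not among the samples of the series, and what the library name of a site records is not stated in the sources used here.

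The other sites carried at most 2 TP10M. The site of miR166f in Bradi3g52590, at position 256, had 2 TP10M and 4.17% of the PARE abundance of its transcript, from a panicle library that is also outside the series, with an expectation of 4.5. In Bradi3g37623 the 2 miR166 forms, which start 1 base apart, were predicted to cut at positions 173 and 174, and each position had 1 TP10M. miR166 is known in Arabidopsis for cutting transcripts of class III homeodomain-leucine zipper factors, and the expectations of 4.5 and 5 here lie at or near the table's highest value of 5.

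The closest match in sequence had no PARE read at all. miR1122 was predicted in Bradi5g23135 at position 533 with an expectation of 0 and a TargetFinder score of 0, and miR5183 at position 521 with 2 and 2, and neither position had a read. Both miRNAs had many sites in the table, 235 for miR1122 with reads at 21, and 255 for miR5183 with reads at 52. This gene was low in control and high in cold, and the tissue and depth behind an absent read are unknown. In Bradi2g51870, 3 sites of the miR5181 family lay at positions 1909, 1940 and 1942, and 2 of them had 1 TP10M. The remaining reads, of 1 TP10M each, were in Bradi2g02310 for miR7757-3p.2, in Bradi3g39110 for miR5198 and in Bradi3g44950 for miR159b-5p.3. Sites without a read were predicted in Bradi2g02080, Bradi2g56096 and Bradi3g57440.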

How the data were processed

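The authors aligned RNA-seq reads with STAR 2.5.3a to release v3.1 of the Brachypodium distachyon genome, and the authors deposited RSEM 1.2.31 expected counts and TPM values per gene (versions per the submitters' processing notes). TPM keeps no depth, and from 13.3% to 15.6% of expected counts per library were not whole. For PARE, reads were mapped by the authors with Bowtie 0.12.7 without mismatches and sites were predicted with psRNATarget and TargetFinder. The deposited site table gives the expectation, the TargetFinder score and the abundance (rounded TP10M, used as a score), and the share of the transcript's PARE abundance as a fraction. Levels were rebuilt from 10 TP10M, rank 1 or 2 and a share of 20% in 28197 of 28197 rows, whereas the paper words the last criterion as 10%, which rebuilt 28029 rows; the deposited levels were used. How libraries were combined is not given in the sources used here.

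Members and lists were chosen with earlier results of these data known. Lists by gene function could not be made, since no ID matched an annotation. Named genes were the 10 of highest stress mean, the 10 of largest smallest ratio, the 2 of largest excess in each stress, the genes at the threshold and those with the strongest sites, and further members were named to account for the group. Expected counts were rounded to whole numbers and tested with edgeR 4.0.16 in R 4.3.3 (filterByExpr, TMM factors 0.825 to 1.22, quasi-likelihood test, all 10 libraries in 1 fit without covariates, 6 contrasts between stresses and 4 against control, Benjamini-Hochberg over 23494 genes, threshold 0.05). SE is the log2 difference divided by the square root of F. Intervals came from scipy 1.17.1. Alternatives were DESeq2 1.42.0, other scalings, filters, pseudocounts and ratios, a replicate block, and each library left out. With 2 libraries per condition, p-values measure the spread between these libraries, pooled over conditions.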

Additional observations from a re-analysis of the deposited data

How the results depend on the processing

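The number of genes meeting the rule moved most with the pseudocount and the ratio. It was 60 at a pseudocount of 0.5 TPM, 232 at 0.1 TPM and 7 at 5 TPM, 189 at a ratio of 1.5 and 4 at a ratio of 3, 6 for the lower stress replicate against the higher control replicate, and 10 on TMM-scaled CPM, of which 8 were among the 28. All 28 remained at the lower pseudocounts, as they must, since a lower pseudocount only loosens the rule. Leaving out each library gave from 20 to 60 genes. The log2 of the smallest ratio then ran from −0.0034 to 1.205 in Bradi3g31515 and from −0.0936 to 2.24 in Bradi3g44950, lowest without cold replicate 1, and from −0.14 to 1.80 in Bradi5g10967, lowest without heat replicate 2. Genes called between stresses ranged over left-out libraries from 12 to 16 for drought minus cold, 15 to 19 for drought minus submergence, 19 to 23 for drought minus heat, 10 to 16 for cold minus submergence, 11 to 18 for cold minus heat and 2 to 7 for submergence minus heat, where 7 came without either cold library and 2 without heat replicate 1. Against control the ranges were 25 to 27 in drought, 19 to 24 in cold, 11 to 26 in submergence and 2 to 19 in heat. Other tools, scalings and filters kept every count of calls within 1.5 times. The causes were not tested.

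Deviations of same-numbered libraries correlated weakly, from −0.20 to 0.19. Pairs with heat were all negative (−0.07 to −0.20), and pairs among the other conditions ran from 0.0003 to 0.19. Whether the replicate numbers pair the libraries cannot be told from these values. With the number as a replicate block, 13, 18, 22, 11, 15 and 4 genes were called for the 6 pairs of stresses in the order above, and 26, 22, 22 and 16 against control in drought, cold, submergence and heat, and it ended none of the 13 calls of highest against second stress. Library size alone ended 1 of these, Bradi3g57440 (0.48 for drought minus submergence, adjusted p = 0.0712).

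With the peak criterion of 10% that the paper words, tried here after seeing the data, the site in Bradi1g09030 would be at Level 4 rather than 3. Of the sites, 4 were predicted by both programs, 1 of them with a read, 2 had at least 2 TP10M, and the 6 genes of the stricter replicate rule held 1 site, which had a read. Genes chosen in replicate 1 met the rule in replicate 2 in 29.2% of cases at a ratio of 1.5. Depth limits Bradi3g52590, Bradi1g44665, Bradi5g09757 and Bradi1g33507, with at most 1 count in each control library.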
